A study of Arabidopsis thaliana with 15 samples.

Results

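In the seedlings compared here, 47 of 33201 listed genes had transcript in wild type (WT) and almost none in the mutant syd-5. They were chosen by their values. A gene was taken where the authors' value was at least 1 FPKM (fragments per kilobase of transcript, scaled to library size, so that a level is already divided by length) in WT and at most 0.1 FPKM in syd-5. It also had to be a single gene ID on a span of at least 500 bp that no other listed gene shared. Of the 15054 genes that met the conditions on ID and span and reached 1 FPKM in WT, the 47 were 0.312%. Both genotypes were Arabidopsis thaliana of the Col-0 ecotype, 14 days old, grown on plates in 16 h of light and 8 h of dark. RNA came from frozen whole seedlings, with 3 libraries of WT and 3 of syd-5. The mutation was the 1 difference between the groups that the labels name, and it was studied as a single allele. The other 9 libraries of the series, chromatin immunoprecipitations and their inputs, were not analysed here.

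SYD (SPLAYED) is the ATPase of a SWI/SNF complex. Such complexes use the energy of ATP to slide or evict nucleosomes and so open or close promoters to transcription factors. In Arabidopsis SYD acts partly in parallel with its close homolog BRAHMA, and it is known for roles in shoot meristems, flowers and the expression of stress genes. Polycomb proteins, which keep genes silent through the mark H3K27me3, are a counterpart of these complexes in plants and animals.

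The table gave 1 value per gene and genotype, so that no spread between libraries, no depth and no interval stands behind any level. A gene listed at 0 is one for which the table gives no signal, which does not show that its transcript was absent. SYD itself read 13.1 FPKM in WT against 2.53 FPKM in the mutant (q = 0.000351 by the authors' deposited table). In RNA from whole seedlings, fewer cells of a type and less RNA per cell cannot be told apart. Among 17648 genes with at least 1 FPKM in both genotypes the median log2 ratio of syd-5 to WT was -0.0037, so the genotypes were on nearly the same scale.

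The members lay in the lower part of the WT range, which the rule favours. Their WT levels ran from 1.02 to 20.8 FPKM with a median of 1.88 FPKM, against a median of 14.8 FPKM over the 15054 genes. Of the 1230 genes between 1 and 2 FPKM in WT, 26 (2.11%) were members, and of the 2161 between 2 and 5 FPKM 16 were (0.740%). Of 2361 genes between 5 and 10 FPKM 2 were members, and of 4166 between 10 and 25 FPKM 3 were. None of the 5136 genes at 25 FPKM or more was. A decline of this kind is built into the rule, because a fixed limit of 0.1 FPKM in syd-5 asks for a larger fold at a higher WT level. It therefore does not show that genes with high WT levels were less affected. In syd-5, 18 members were listed at 0 and 29 lay above 0, up to 0.0976 FPKM. Levels at least 10-fold below WT were found in 148 of the 15054 genes (0.983%), and 101 of these stayed above the limit of 0.1 FPKM in syd-5 and were no members. With the limits swapped, 15 genes were at most 0.1 FPKM in WT and at least 1 FPKM in syd-5, with a median of 1.46 FPKM and a maximum of 2.76 FPKM in syd-5.

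**Figure D1:**
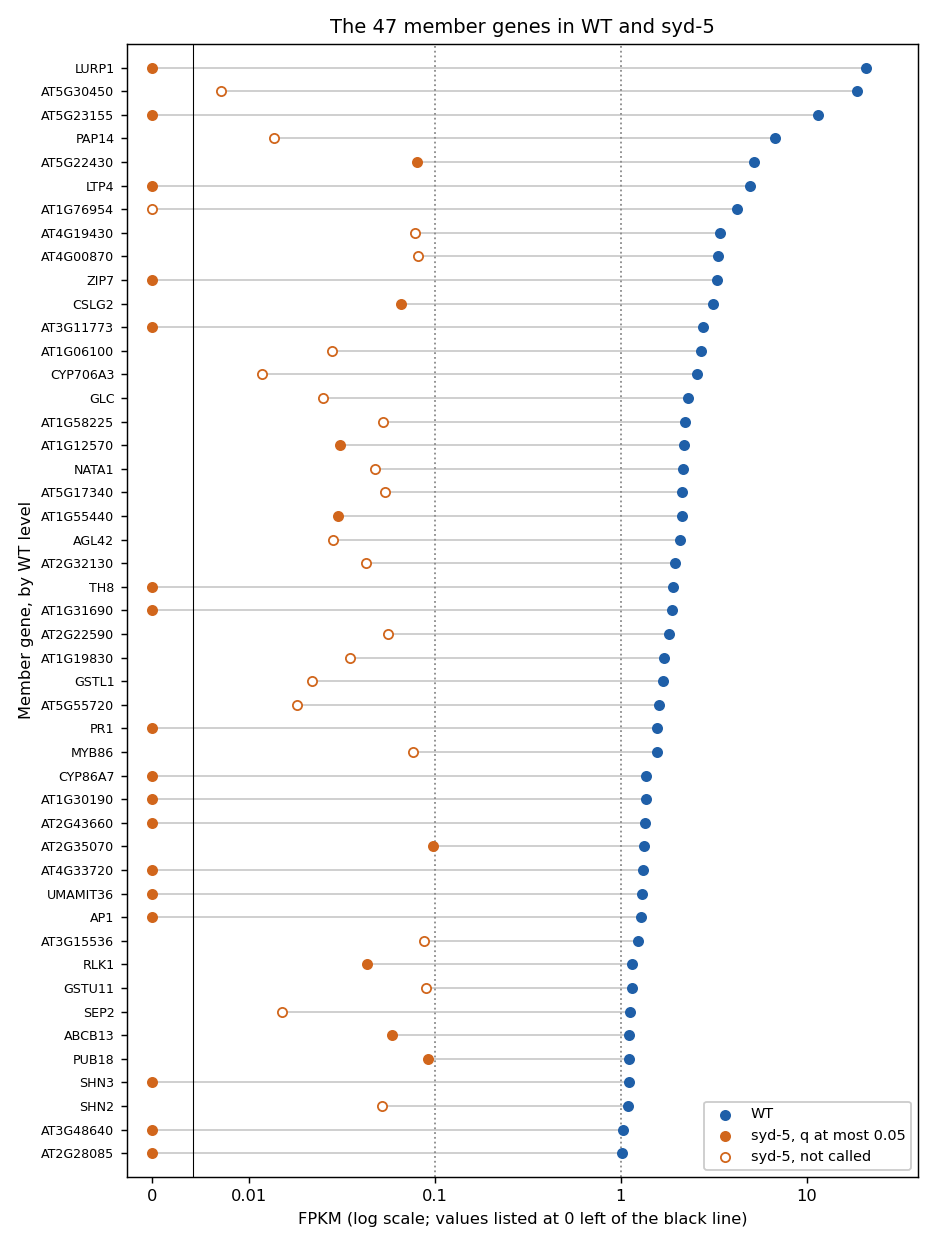
FPKM of each of the 47 member genes (rows, ordered by WT level) in WT (blue) and syd-5 (orange), 1 authors' value per genotype on a log axis, with values listed at 0 left of the black line. Filled orange points are the 25 members called lower (q within 0.05, authors' deposited table), open points the other 22; dotted lines mark the limits of 0.1 and 1 FPKM.

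**Figure D2:**
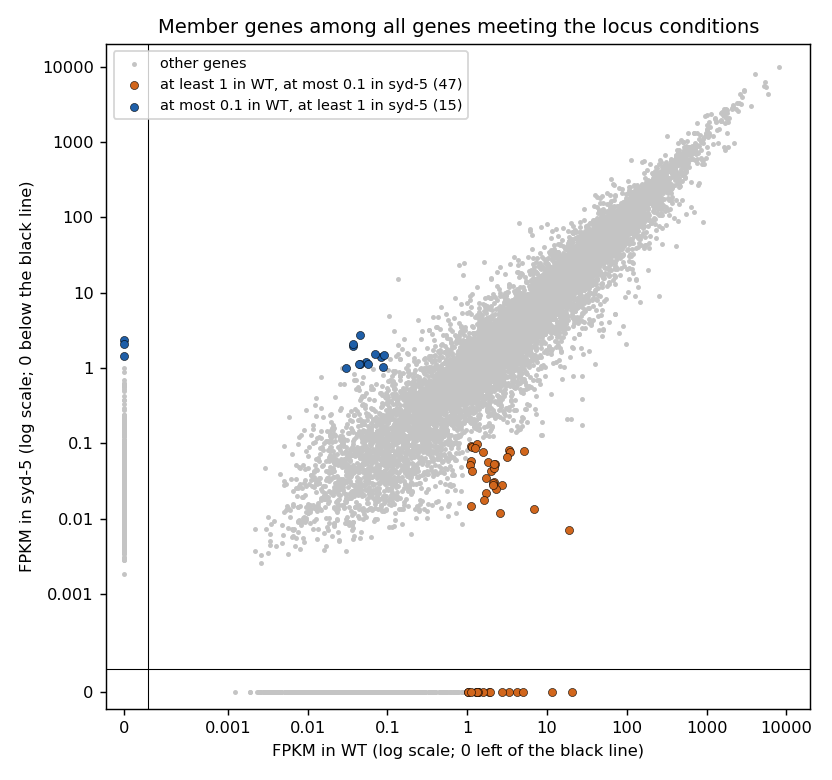
FPKM in WT against FPKM in syd-5 (both log axes, 0 set apart beyond the black lines) for genes with a single ID, an unshared span and at least 500 bp. The 47 members (orange) lie below the main cloud at WT levels of 1.02 to 20.8 FPKM, and 15 genes (blue) meet the same limits with the genotypes swapped.

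The member with the highest WT level acts in defence, and another member is a standard defence marker. LURP1 (AT2G14560, TAIR10 chromosome 2, 6213972 to 6215901), which is needed for resistance to the oomycete Hyaloperonospora, was at 20.8 FPKM in WT but listed at 0 in the mutant. PR1 (AT2G14610, chromosome 2, 6241704 to 6242463), whose product is secreted during salicylic acid responses, was at 1.56 FPKM in WT but listed at 0 in the mutant. Each had q = 0.000351 by the authors' deposited table. They stand 25.8 kb apart. PRB1 (AT2G14580), the basic relative of PR1, lies in the gap between them and fell to 0.171 FPKM from 4.83 FPKM (q = 0.0304 by the authors' deposited table), just too high in syd-5 to be a member. The genes directly beside LURP1 and PR1, 4 in all, were listed at 0 in both genotypes except XTH10, at 0.821 FPKM in WT and 0.483 FPKM in the mutant.

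Other genes on the salicylic acid list fell too but stayed above the limit. Of 21 genes on the list, 20 were tested by the authors, 12 fell with PR1 and LURP1 included, none rose and 8 were not called, beside 18.0% of all tested genes that fell and 14.1% that rose by a q within 0.05 in the authors' deposited table. The median log2 ratio of the tested genes, each value raised by 0.1 FPKM, was -1.47 against -0.02 over all 19868 tested genes. PR1 and LURP1, which the rule chose for low values in syd-5, are part of this median too. Neither the median nor the count of 12 is thus independent of the rule. PR2, a glucanase gene, fell to 0.129 FPKM from 8.71 FPKM, so that it missed the limit by a small margin. WRKY54, a transcription factor gene, fell 12.5-fold to 0.237 FPKM from 2.97 FPKM, and PAD4, an upstream regulator, fell 2.40-fold to 4.87 FPKM from 11.7 FPKM. PR5, another marker of this response, was at 15.9 and 16.3 FPKM and was not called. In the list of ethylene and jasmonate defence genes no gene was a member, and of 8 tested 4 fell and 1 rose, beside the same 18.0% and 14.1%. PDF1.2A, a defensin gene with near-identical copies whose values are uncertain, fell to 0.286 FPKM from 7.01 FPKM. PDF1.2B of the same list was higher in the mutant, 4.64 against 2.39 FPKM, and was not called. PDF1.2C and PDF1.3 were lower in the mutant, 0.322 against 1.54 FPKM and 0.732 against 1.80 FPKM, and were not called either. The gene that rose was ORA59, to 31.3 FPKM from 13.4 FPKM.

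Some members are MADS genes of flowering. MADS proteins bind DNA as dimers or tetramers and set the identity of meristems and floral organs. AP1 (AT1G69120, chromosome 1, 25982330 to 25986313), a gene that turns meristems into flowers, was at 1.28 FPKM in WT but listed at 0 in the mutant (q = 0.000351 by the authors' deposited table). SEP2 (AT3G02310), a cofactor of all floral organ genes, was at 1.12 FPKM in WT and 0.0149 FPKM in the mutant, a 75.3-fold difference that was not called (q = 0.294 by the authors' deposited table). AGL42 (AT5G62165, chromosome 5, 24964700 to 24968520), a relative of the flowering integrator SOC1, was at 2.08 FPKM in WT and 0.0281 FPKM in the mutant and was not called either (q = 0.396 by the authors' deposited table). SEP1 and SEP2 are close copies, so that reads may be assigned to the wrong one.

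Relatives of these MADS genes went both ways. SEP1 (AT5G15800), on a shared span, fell to 0.506 FPKM from 3.44 FPKM, whereas SEP3 rose to 53.3 FPKM from 22.3 FPKM and SEP4 rose to 30.3 FPKM from 13.7 FPKM. FUL, a close relative of AP1, fell 7.93-fold to 0.969 FPKM from 7.68 FPKM, and CAL, the closest one, was untested at 0.199 and 0.0212 FPKM. Of 13 floral meristem and organ genes 11 were tested, 6 fell with the member AP1 included, 3 rose and 2 were not called, beside 18.0% and 14.1% of all tested genes. Of the 6 SOC1-like genes 4 were tested and 2 fell, SOC1 to 9.69 FPKM from 38.8 FPKM and AGL14 to 0.695 FPKM from 1.98 FPKM. In WT, AP1, SEP2 and AGL42 were all far below SOC1, SEP3 and SEP4 per length.

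SHN2 (AT5G11190) and SHN3 (AT5G25390) encode AP2/ERF factors that switch on cutin genes. SHN3 was at 1.10 FPKM in WT but listed at 0 in the mutant (q = 0.000351 by the authors' deposited table). SHN2 was also at 1.10 FPKM in WT, at 0.0517 FPKM in the mutant, and was not called (q = 0.305 by the authors' deposited table). The remaining gene of this small family, SHN1, was at 0.664 FPKM in WT and 0.0283 FPKM in the mutant (q = 0.296 by the authors' deposited table), under the WT limit.

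CYP86A7 (AT1G63710), of a family of fatty acid hydroxylases that make cutin and suberin monomers, was at 1.37 FPKM in WT but listed at 0 in the mutant. Its relatives CYP86A4 and CYP86A1 fell, to 0.565 FPKM from 3.83 FPKM and to 1.73 FPKM from 5.77 FPKM, but CYP86A8 rose to 26.8 FPKM from 16.1 FPKM. LTP4 (AT5G59310, chromosome 5, 23925085 to 23925852) encodes a lipid transfer protein, a small secreted protein that binds lipids. It was at 4.97 FPKM in WT but listed at 0 in the mutant, while its tandem copy and direct neighbour LTP3 was at 7.99 FPKM in WT and 5.94 FPKM in the mutant and was not called (q = 0.197 by the authors' deposited table). Of the 6 genes LTP1 to LTP6, 4 fell, the member LTP4 included, and LTP2 rose to 123 FPKM from 45.4 FPKM. Over all tested genes 18.0% fell and 14.1% rose. LTP3 and LTP4 are close in sequence, and reads may have been split between them. Markers of epidermal cell types gave these values beside SHN2, SHN3, CYP86A7 and LTP4, which were put together after their values were seen. All 3 guard cell markers fell, beside the same 18.0% of all tested genes, their sum to 30.2 FPKM from 60.6 FPKM. None of the 3 tested trichome markers was called. The 4 listed trichome markers, the untested GL3 included, summed to 9.21 FPKM in WT and to 1.97 FPKM in the mutant. The highest of them in both genotypes was GL2, at 7.36 and 0.773 FPKM on a shared span, which makes up most of the WT sum. GL1 was at 0.761 and 0.642 FPKM, TRY at 0.695 and 0.378 FPKM and GL3 at 0.396 and 0.179 FPKM. The part of these cell types in the result was not tested.

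**Figure D3:**
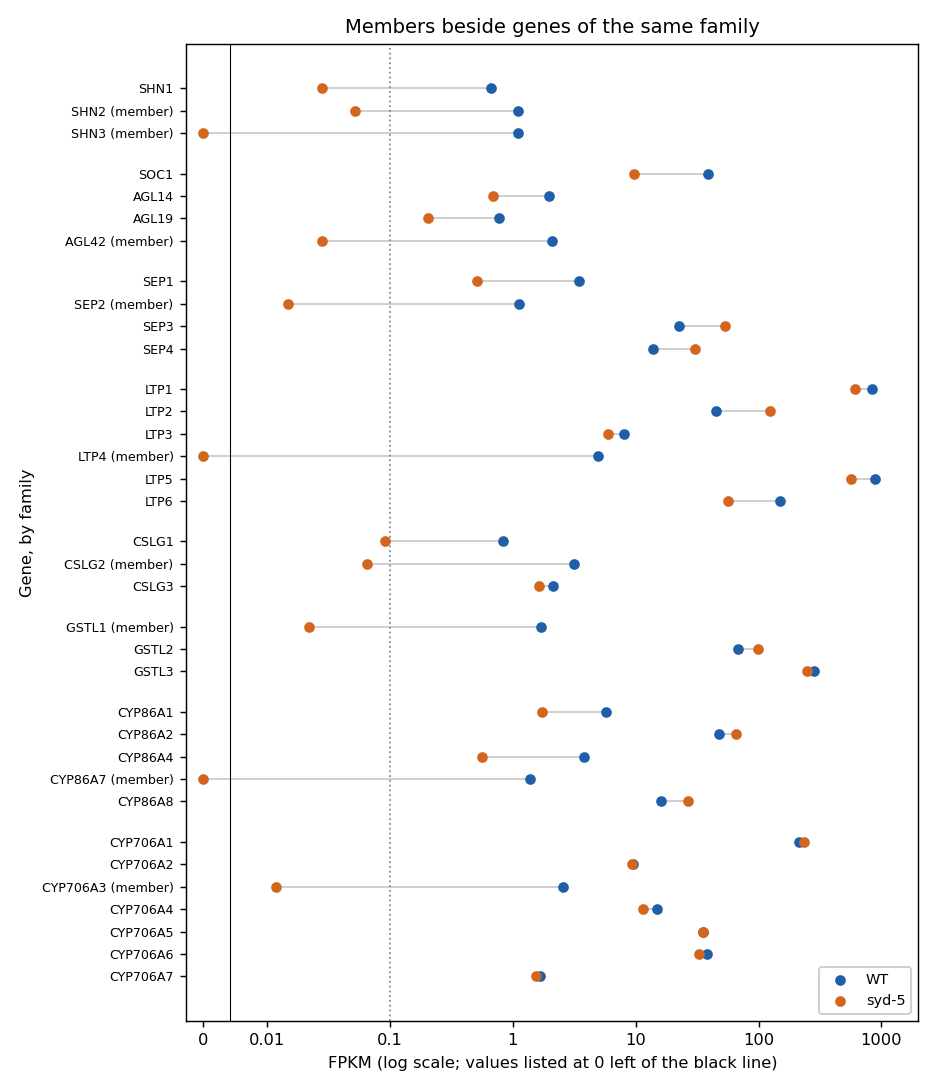
FPKM in WT (blue) and syd-5 (orange) of genes of 8 families that hold members, 1 authors' value per gene and genotype on a log axis, with values listed at 0 left of the black line and the limit of 0.1 FPKM dotted. SHN1 and CSLG1, which are no members, also sit below the limit in syd-5, whereas LTP3 and the other CYP706A genes stay close to their WT levels beside LTP4 and CYP706A3.

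Several members encode enzymes. CYP706A3 (AT5G44620), a cytochrome P450 that oxidises terpenes in flowers, was at 2.56 FPKM in WT and 0.0117 FPKM in the mutant, a 218-fold difference that was not called (q = 0.305 by the authors' deposited table). Of its 6 listed relatives only CYP706A4 was called, falling to 11.6 FPKM from 15.0 FPKM. Glutathione transferases, which join glutathione to reactive compounds, gave members in 2 classes. GSTL1 (AT5G02780) was at 1.69 FPKM in WT and 0.0219 FPKM in the mutant, while its neighbour GSTL3 was at 281 and 248 FPKM. GSTU11 (AT1G69930) was at 1.15 FPKM in WT and 0.0897 FPKM in the mutant. Neither member was called. In the tau class of GSTU11, 14 of 25 tested genes fell and none rose, beside 18.0% and 14.1% of all tested genes. GSTU12, its tandem neighbour, fell to 0.237 FPKM from 0.928 FPKM and GSTU4 fell to 1.52 FPKM from 28.0 FPKM.

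CSLG2 (AT4G24000, chromosome 4, 12462030 to 12465625), a cellulose synthase-like gene, fell 47.8-fold to 0.0656 FPKM from 3.13 FPKM (q = 0.00299 by the authors' deposited table). It is flanked by its 2 copies. CSLG1, on a shared span, was at 0.831 FPKM in WT and 0.0915 FPKM in the mutant, and CSLG3 was at 2.14 and 1.64 FPKM, neither of them called. NATA1 (AT2G39030), which makes N-acetylornithine in jasmonate responses, was at 2.16 FPKM in WT and 0.0476 FPKM in the mutant and was not called. PAP14 (AT2G46880), a purple acid phosphatase gene, had the second largest finite difference, with 6.78 FPKM in WT and 0.0136 FPKM in the mutant (499-fold, q = 0.396 by the authors' deposited table). Of 20 tested purple acid phosphatase genes 7 fell and 1 rose, beside 18.0% and 14.1% of all tested genes. TH8 (AT1G69880), an h-type thioredoxin gene, was at 1.91 FPKM in WT but listed at 0 in the mutant. TH8 and GSTU11 lie 14.5 kb apart on chromosome 1, the closest pair among the members. GLC (AT1G65450), named GLAUCE for its role in fertilisation of the central cell, was at 2.30 FPKM in WT and 0.0249 FPKM in the mutant and was not called.

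Each of 3 transporter families gave a single member. ZIP7 (AT2G04032, chromosome 2, 1289832 to 1291383), a metal transporter gene, was at 3.31 FPKM in WT but listed at 0 in the mutant. Over all tested genes 18.0% fell and 14.1% rose. Of 9 tested ZIP and IRT genes 4 fell, the member ZIP7 included. Among them ZIP3 fell to 0.573 FPKM from 2.62 FPKM, and ZIP6 rose to 7.52 FPKM from 4.82 FPKM. UMAMIT36 (AT1G70260), of a family of amino acid transporters, was at 1.31 FPKM in WT but listed at 0 in the mutant, and of 32 tested UMAMIT genes 13 fell, itself included, and 4 rose. ABCB13 (AT1G27940), of the subfamily that holds auxin transporters, fell 18.7-fold to 0.0590 FPKM from 1.10 FPKM (q = 0.000351 by the authors' deposited table). ABCB14, its close copy, was at 1.79 FPKM in WT and 2.30 FPKM in the mutant and was not called, and reads may have been split between the pair. Of 19 tested ABCB genes 8 fell, the member ABCB13 included, and 1 rose.

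Regulators of other kinds completed the named members. PUB18 (AT1G10560), a U-box ubiquitin ligase gene that limits abscisic acid responses, fell 12.1-fold to 0.0915 FPKM from 1.10 FPKM, the smallest fold of all members. Its paralog PUB19 fell to 0.418 FPKM from 2.07 FPKM. Of 21 tested PUB genes 9 fell, the member PUB18 included, and 1 rose, beside 18.0% and 14.1% of all tested genes. RLK1 (AT5G60900), a receptor-like kinase gene, fell to 0.0428 FPKM from 1.15 FPKM (q = 0.0314 by the authors' deposited table). It is the direct neighbour of FUL. MYB86 (AT5G26660), a MYB transcription factor gene, was at 1.56 FPKM in WT and 0.0764 FPKM in the mutant and was not called. SAUR genes encode small proteins that often respond to auxin and promote cell expansion. SAUR42 (AT2G28085) was at 1.02 FPKM in WT but listed at 0 in the mutant, and SAUR54 (AT1G19830) was at 1.70 FPKM in WT and 0.0349 FPKM in the mutant, not called. The SAUR family as a whole did not share that direction, with 16 fallen and 20 risen of 63 tested, beside 18.0% and 14.1% of all tested genes.

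Of the 47 members 44 were protein-coding (93.6%, against 98.4% of the 15054 genes). The other 3 had WT levels that spanned nearly the whole range. The non-coding RNA gene AT5G23155 (chromosome 5, 7794142 to 7795010) was at 11.5 FPKM in WT but listed at 0 in the mutant (q = 0.0115 by the authors' deposited table). The non-coding RNA gene AT3G15536 was at 1.24 FPKM in WT and 0.0871 FPKM in the mutant and was not called. The pseudogene AT5G30450 (chromosome 5, 11559203 to 11561951) had the largest finite difference of all members, 2655-fold, from 18.6 FPKM in WT to 0.00702 FPKM in the mutant, and was not called (q = 0.305 by the authors' deposited table). The genes on both sides of it were listed at 0 in both genotypes.

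A further 19 protein-coding members have no name in the gene table used here, and 10 of them were called. Those listed at 0 in syd-5 were AT1G76954 (4.20 FPKM in WT, untested), AT3G11773 (2.76 FPKM), AT1G31690 (1.88 FPKM), AT1G30190 (1.37 FPKM), AT2G43660 (1.35 FPKM), AT4G33720 (1.32 FPKM) and AT3G48640 (1.03 FPKM). Called above 0 were AT5G22430 (5.21 and 0.0804 FPKM), AT1G12570 (2.19 and 0.0308 FPKM), AT1G55440 (2.13 and 0.0301 FPKM) and AT2G35070 (1.33 and 0.0976 FPKM). The first 2 of these had folds of 64.8 and 71.1, and each of the 4 had q = 0.0114 by the authors' deposited table. The 8 others were not called, namely AT4G19430, AT4G00870, AT1G06100, AT1G58225, AT5G17340, AT2G32130, AT2G22590 and AT5G55720. Their WT levels ran from 3.40 FPKM in AT4G19430 to 1.60 FPKM in AT5G55720.

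Among the members above 0 in syd-5, the calls did not follow the size of the fold. By the calls of the authors' deposited table, 25 of the 47 members (53.2%) were called lower, 21 were tested and not called, and 1 was untested. Over all tested genes 18.0% were called lower, which is no measure for the members because they were chosen on the same contrast. All 17 tested members listed at 0 in syd-5 were called, 16 of them at p = 5e-05, the smallest p in the authors' deposited table. Of the 29 members above 0 only 8 were called. Those 8 had a median fold of 37.4 (12.1 to 71.1), and the 21 that were not called had a median fold of 46.5 (12.8 to 2655).

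The members above 0 also differed in length and level by call. The 8 called ones had a median span of 2628 bp and a median WT level of 1.73 FPKM, and the 21 others a median span of 1523 bp and a median WT level of 2.08 FPKM. Among the 21, 13 shared their p-value with another, for example 5 with p = 0.157 and 3 with p = 0.0458 in the authors' deposited table. In the whole table, 179 tested genes with a finite ratio were at least 10-fold lower in syd-5, and 111 of them (62.0%) were called. Of 53 tested genes listed at 0 in syd-5, 45 were called and 37 of these had the smallest p. How the libraries of a genotype differed from each other in these genes was not given, and its part in the calls was not tested.

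**Figure D4:**
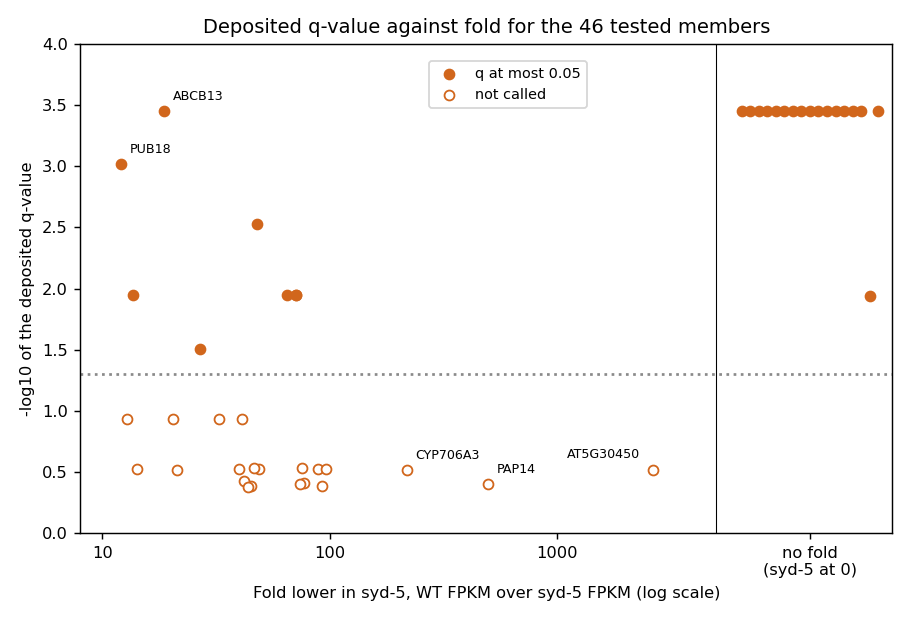
The -log10 of the q-value in the authors' deposited table against the fold (WT FPKM over syd-5 FPKM, log axis) for the 46 tested members, with the 17 listed at 0 in syd-5 set apart at right, spread sideways for view. Filled points have q of at most 0.05 (dotted line); AT5G30450 and PAP14, with the largest finite folds, were not called.

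The limits of the rule cut through a continuous range. Just inside the limit of 0.1 FPKM in syd-5 were AT2G35070 at 0.0976 FPKM, PUB18 at 0.0915 FPKM and GSTU11 at 0.0897 FPKM. Just outside were AT5G17390 at 0.113 FPKM, AT2G43440 at 0.121 FPKM and AT3G04200 at 0.125 FPKM. On the side of WT, AT2G28085, AT3G48640 and SHN2 were just inside at 1.02, 1.03 and 1.10 FPKM, and the receptor kinase gene CRK6, AT3G14395 and AT5G23413 just outside at 0.988, 0.933 and 0.895 FPKM.

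The members had short spans and lay on all chromosomes. Their median span was 1517 bp, against 2217 bp over the 15054 genes, and 35 of 47 were under the latter value. Chromosome 1 held 16 members (34.0%, against 26.4% of the 15054 genes), chromosome 2 held 10 (21.3% against 15.1%), chromosome 5 held 13 (27.7% against 23.1%), and chromosomes 3 and 4 held 4 each (8.51% against 20.3% and 15.1%). Within 5 Mb of SYD were 5 members (10.6%) and 9.82% of the 15054 genes. The nearest member, SAUR42 (AT2G28085), lay 86.1 kb from SYD, and the part of this position in its value was not tested. No member's span overlapped that of another listed gene, but the rule had already left out spans shared with another gene. The same share over the 15054 genes was not taken.

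Genes next to the members were set beside genes at large. Of 57 directly adjacent genes with at least 1 FPKM in WT, 12 (21.1%) were at 0.5 times their WT level or less in syd-5, against 9.52% of all 18228 such genes, a description with no test. By the calls of the authors' deposited table, 17 of the 57 (29.8%) fell and 2 (3.51%) rose, against 18.8% and 14.0% of the tested genes among the 18228. Their median log2 ratio, each value raised by 0.1 FPKM, was -0.18 against -0.02, and their median WT level was 17.0 FPKM against 14.7 FPKM.

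All 12 of those neighbours fell, but they were picked for low values in syd-5 relative to WT, so their direction was set by the choice. The share called among all genes picked in this way was not taken, so the 12 calls have no matching share beside them. AT2G04033 beside ZIP7 fell to a listed 0 from 1.77 FPKM, and AT3G48650 beside AT3G48640 fell to 0.217 FPKM from 5.06 FPKM. FUL beside RLK1 and AT1G63720 beside CYP86A7 fell as well, the latter to 4.76 FPKM from 16.9 FPKM. MAP18, a gene for a microtubule-associated protein beside CYP706A3, fell to 6.89 FPKM from 16.4 FPKM. No member was the direct neighbour of another. The direct neighbours of AP1 were listed at 0 in both genotypes, and those of SHN2 were at 0.00754 and 0.0141 FPKM for GLR2.6 and at 43.0 and 43.4 FPKM for UAP56b, in WT and syd-5.

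**Figure D5:**
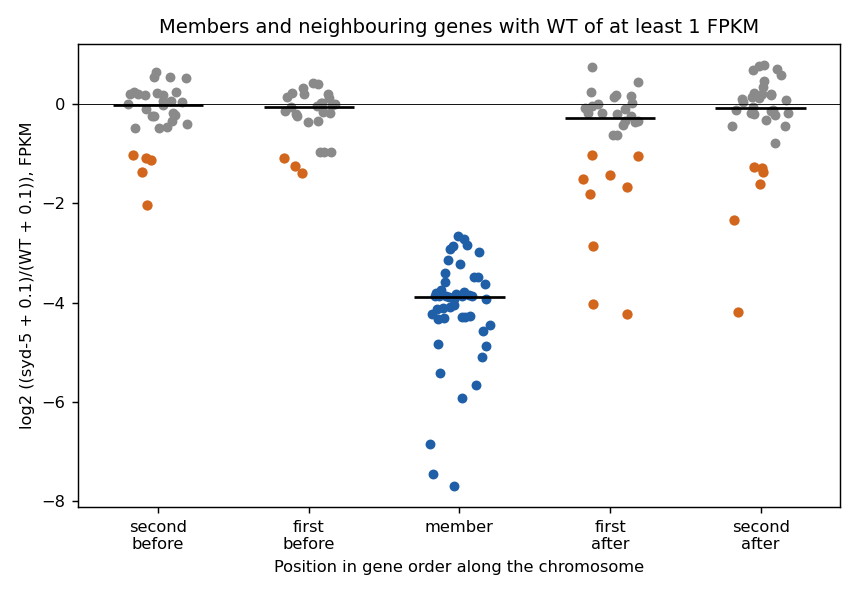
log2 of (syd-5 + 0.1)/(WT + 0.1), in FPKM, for the 47 members (blue) and for the first and second genes on either side in chromosome order with at least 1 FPKM in WT (grey, or orange where syd-5 is at 0.5 times WT or less); points are spread sideways for view and black bars are medians. The members were chosen for low values, with a median of -3.88, and the medians of the neighbours lie close to 0.

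Markers of other organs gave no member, which says little about those organs. None of the anther, pollen or seed markers reached 1 FPKM in WT, so none of them could be a member. Among the root markers 5 reached it. Of 11 root markers 8 were tested, 2 rose (CASP2 and SHR) and none fell, beside 14.1% and 18.0% of all tested genes. The 11 summed to 27.8 FPKM in WT and 31.7 FPKM in the mutant. Of 6 anther and pollen markers none was tested, 4 were listed at 0 in both genotypes, and their sums were 0.109 and 0.0782 FPKM. The other 2 were AMS, at 0.0669 and 0.0782 FPKM, and TDF1, at 0.0419 FPKM in WT and a listed 0 in the mutant. Of the petal and stamen identity genes, PI rose to 6.74 FPKM from 1.79 FPKM, and AP3 fell to 0.280 FPKM from 1.12 FPKM. Of 5 seed markers 2 were tested and neither was called, beside the 18.0% of all tested genes that fell and the 14.1% that rose. The 5 summed to 1.31 FPKM in WT and 4.76 FPKM in the mutant.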

How the data were processed

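RNA of 3 WT and 3 syd-5 libraries was read through 1 table, which the authors deposited. The submitters' processing notes name Bowtie2, TopHat2 (version 2.0.4), bedtools and the build TAIR10, without saying what each did. Which program wrote the table is not stated there. Its deposited expression values were taken to be FPKM, though the header names no unit. Each p-value and q-value is also the authors' own, deposited with the table. Adjusting the 19868 tested p-values by Benjamini-Hochberg gave the same q-values (largest difference 5.22e-07). No value per library, no depth and no count is given, and steps of 1 read cannot be recovered without transcript lengths. The labels do not say whether libraries came from separately grown plants.

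With Python 3.11.15 and pandas 2.3.3, members were selected by the stated limits, and the selection was tested on simulated data. Since the rule used both genotypes' values, no test was made on the members. The planned count test was not possible. Fold is WT FPKM over syd-5 FPKM, and a gene listed at 0 gets none. Log2 ratios of lists and neighbours add 0.1 FPKM to each value, which understates changes of low genes. "Fell" and "rose" mean a q within 0.05 in the authors' deposited table.

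Names were looked up in RefSeq's genes for the assembly TAIR10.1, which held 32208 of 32915 single IDs (97.9%) and all 47 members. Coordinates follow the authors' table, shifted to count from 1, since its starts are 1 below those of RefSeq for 12528 genes. Annotation of exons was not used here. The naming rule took SYD, the called members, the 10 highest others, the 3 genes on each side of each limit and up to 4 genes of each of 10 lists (92 genes) by smallest q. The remaining members are named so that each is accounted for. Other list genes, neighbours and the families, picked by symbol, were chosen after their values were seen. Members and lists were chosen with earlier results of these data known.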

Additional observations from a re-analysis of the deposited data

How the results depend on the processing

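The number of members depended on the limits. It was 47 as reported, 88 with syd-5 at most 0.2 FPKM, 18 with syd-5 listed at exactly 0, 124 with WT at least 0.5 FPKM, 21 with WT at least 2 FPKM, 78 with no minimum span and 31 with a span of at least 1000 bp. It stayed within 1.5 times of 47 with syd-5 at most 0.05 FPKM (33), with shared spans kept (51), and with joined entries kept or syd-5 rescaled to the sum or the median of WT (47 each, the same genes). The called members numbered 25, and 24 when the adjustment included untested genes, where RLK1 was lost (q = 0.0525, recomputed from p in the authors' deposited table). They numbered 19 at q of at most 0.01, and 25 at q of at most 0.1. They numbered 8 without the members listed at 0, a choice made after seeing the data. Leaving out members that overlap another gene, also chosen then, could change nothing because no member does. The members' median log2 ratio was -3.88 with 0.1 FPKM added, -4.76 with 0.05 and -1.51 with 1, as the added value sets it for genes near 0. The share of neighbours at 0.5 times WT or less was 21.1%, 18.9% with 2 genes on each side and 24.3% with any WT level above 0. The share over all genes was taken only at a WT level of at least 1 FPKM, so the 24.3% has no matching share beside it. No paired analysis was possible because the table gives 1 value per genotype, and for the same reason no library could be left out. Promoter motifs and protein alignments were not run. Without depth, a value of 0 cannot be given an upper limit.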

Other observations

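The minimum span of 500 bp kept out 31 further genes that met the other limits, and all 31 were listed at 0 in syd-5. They were 20 protein-coding genes, 4 transcribed pseudogenes, 3 miRNA genes, 1 non-coding RNA gene, 1 pseudogene and 2 genes that the RefSeq table did not match. Their WT levels ran up to 431 FPKM with a median of 3.63 FPKM. Of the 31, 9 were tested and 6 of these were called by q in the authors' deposited table. In the whole table, 45 of 53 tested genes listed at 0 in syd-5 were called. The highest, AT4G05071 and AT4G30097, with spans of 144 bp each, stood at 431 and 226 FPKM in WT and were untested. MT1B (AT5G56795), a metallothionein gene on a span of 408 bp, stood at 38.1 FPKM in WT but at a listed 0 in the mutant, without a call (q = 0.245 by the authors' deposited table). A further 4 genes were kept out by a shared span, with WT levels of 1.04 to 2.42 FPKM. Of these, 3 were tested and none was called. Over all tested genes with a finite ratio and at least 10-fold lower in syd-5, 62.0% were called. These values are given with no explanation.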
